A study of Mus musculus with 16 samples.

Results

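The genes of the translation initiation and elongation machinery were followed across 16 RNA-seq libraries of mouse spermatozoa. They were taken by symbol from the deposited count table: every eIF gene (Eif1 to Eif6 and their subunits), every eEF gene whose symbol goes on after the first digit, and the cytoplasmic poly(A)-binding proteins Pabpc1 to Pabpc6. The pattern matched 67 of 24062 gene rows. Eef2, the translocase of elongation, has no further character after its digit and so fell outside the pattern. It is given once beside the elongation factors.

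The series compares sperm of males fed a high-fat, high-calorie diet (HFD, 8 libraries) with sperm of males fed the matching control diet (CD, 8 libraries). Males of both groups entered at 3 weeks of age and ate their diet for 9 weeks before motile sperm were collected. No transgene or other treatment is named for either group, and the strain is not given in the sources used here. RNA came from sonicated motile sperm, and 2 ng of it was amplified into cDNA, so counts hold amplification copies that cannot be told from separate molecules.

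Translation initiation loads the small ribosomal subunit with initiator tRNA (eIF2, eIF1, eIF1A, eIF3, eIF5), recruits it to the capped mRNA (eIF4E, eIF4G, eIF4A, eIF4B, with poly(A)-binding protein at the other end), and releases the factors when the start codon is found (eIF5B). Elongation is carried by eEF1A, which brings aminoacyl-tRNA to the ribosome, by its exchange factor eEF1B, and by eEF2. Spermatids store many mRNAs and translate them late, using germ-cell forms of several of these factors, whereas ejaculated or epididymal sperm make almost no cytoplasmic protein and carry remnant RNA.

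Gene counts ranged from 1882555 (HFD 4) to 7783981 (CD 2) per library, and counts on the 67 genes from 27728 to 130344. Levels are given as CPM (a gene's share of the library's counts, on the usual scale) scaled by TMM library factors, unless a sentence says per kilobase. HFD 4 and HFD 8 stood apart from the other 14 libraries. Their late spermatid list (40 genes, none of them a translation factor of the pattern) reached 23198 and 55832 CPM when summed, where the others had 2301 to 13142, and their meiotic list 4274 and 3321, where the others had 233 to 1216. For the epididymal epithelium list the sums were 14615 and 11813 CPM, below the 39007 to 97682 of the others. A separate list of 12 genes of the caput, the head of the epididymis, did not follow it. Its sums were 229 CPM in HFD 4 and 2856 in HFD 8, inside the 125 to 8759 of the others. The leukocyte list, which holds genes that epididymal cells also express, had sums of 2250 and 2698 CPM beside 2329 to 5699, and the stromal list 1449 and 1304 beside 375 to 1105. Single leukocyte genes went both ways in HFD 4 and HFD 8. Cd52 lay below the 1831 to 4601 CPM of the others. Aif1, at 646 and 593 CPM against at most 133, and Ptprc, at 65.5 and 121 against at most 51.9, lay above. Csf1r and Fcer1g also lay above the others, and Lyz2 and Itgam inside their range. The leukocyte sum therefore gives no direction for these genes as a set. The spermatogonial list was 446 and 348 CPM against 85.4 to 343, with its markers Sohlh1 and Lin28a at 0. Most of these 2 high sums was a single gene, Dmrtb1, at 433 and 304 CPM against at most 85.3 in the others. Gfra1, also on the list, lay inside the range of the others in both libraries. The sums are therefore not read as a rise of spermatogonial transcripts as a set. The Sertoli list was 381 and 336 CPM against 1093 to 10985, with Amh and Fshr at 0, and holds Clu, which the epididymis also makes. Reads outside annotated features were 76.1% and 75.0% of the column total in these libraries and 58.0% to 67.9% in the others. Diet differences are therefore given with all 16 libraries and, beside them, without HFD 4 and HFD 8. In bulk RNA, fewer cells of a type and less RNA per cell cannot be told apart.

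As a class, the translation factors took a similar share of gene counts in every library, from 1.37% to 1.70%, with 1.47% in HFD 4 and 1.54% in HFD 8. Their summed level, here scaled to the gene total, was 14767 ± 593 CPM in HFD and 15338 ± 1351 CPM in CD (SD, n = 8 each), a log2 difference of -0.05 that was smaller than the pooled SD of 0.0996. Which genes filled that share did differ between libraries. Poly(A)-binding protein genes held 33.0% of the factor counts in HFD 4 and 26.7% in HFD 8, against 5.67% to 11.4% in the other 14. The eEF1 subunit genes held 17.5% and 20.5%, against 35.2% to 45.9%. The eIF3 subunits were steadier, at 14.7% and 13.8% against 13.8% to 16.3%. All members other than Eef1a1 and the poly(A)-binding genes together held 55.5% and 58.6%, inside the 52.0% to 62.4% of the others.

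Per kilobase of annotated exon, the order of the levels was led by Eef1a1, at 2415 ± 796 CPM per kb in HFD and 2997 ± 367 in CD (SD, n = 8 each). Pabpc1, the somatic poly(A)-binding protein, followed with 430 ± 257 and 329 ± 51.3 CPM per kb. Eif3e, an eIF3 subunit, had 223 ± 77.9 and 188 ± 50.7 CPM per kb. Eif3i had 186 ± 58.6 and 202 ± 15.6, Eef1b2 172 ± 55.0 and 212 ± 60.8, and Eef1g 178 ± 17.9 and 179 ± 49.7 CPM per kb. Within each diet, the ranges of mean ± SD of these last 4 overlapped, and no order is given among them. The diet means of Eef1a1 stood clear of those of every other factor. In HFD 4 alone Eef1a1, at 1061 CPM per kb, came close to Pabpc1, at 1001. At the low end of the tested genes, Eef1e1 averaged 1.81, Eef2k 2.05, Eif2b3 2.14 and Eif5a2 2.34 CPM per kb over the 16 libraries.

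**Figure D1:**
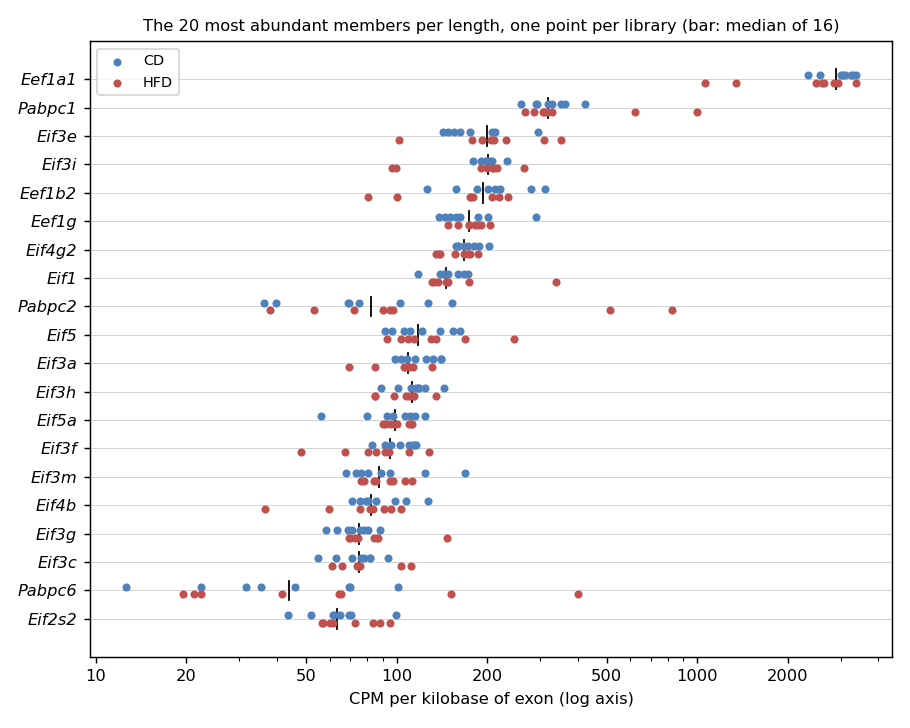
Level of the 20 most abundant factor genes in CPM per kilobase of annotated exon (horizontal log axis), 1 point per library and 8 libraries per diet, ordered by the mean of all 16, with a bar at the median of the 16. Eef1a1 leads, with diet means of 2997 in CD and 2415 in HFD, Pabpc1 follows, and the points of Pabpc2 and Pabpc6 are widely spread.

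5 of the 67 genes did not pass the low-count filter. Eef1a2 (the muscle and neuron form of eEF1A), Eif3j1 and Eif3j2 had 0 counts in every library. 3 counts, the limit that a count of 0 allows, correspond to 0.385 CPM in the deepest library and 1.59 CPM in the shallowest. Eif3j1 and Eif3j2 share 54.8% and 91.8% of their 50-base words with other genes' transcripts, and Eef1a2 shares 0%. Eef1g, at 64.3%, and Pabpc4, at 69.3%, share more than Eif3j1 and had counts. Whether shared reads or the annotation used in counting gave the counts of 0 was not tested. Eif4e1b, the oocyte form of the cap-binding protein, had 2 counts in all, both in HFD 7, and Pabpc5 had 11 counts in all, with at most 1.74 CPM. The other 62 were tested.

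The diet comparison asked which factor transcripts differ between sperm of HFD and CD males. By edgeR's quasi-likelihood test with Benjamini-Hochberg adjustment over 13149 genes, 0 of the 62 tested factors passed an adjusted p of 0.05, and 0 of all genes tested did (0%). DESeq2 and limma-voom also called 0 of the factors, beside 1 and 0 of the 13149 genes. At an unadjusted p of 0.05, 4 factors were higher in HFD, beside 10.2% of all genes tested, and 0 were lower, beside 1.1%. Without HFD 4 and HFD 8, 0 factors passed the unadjusted threshold, beside 2.17% of all genes tested. The median log2 fold change over the tested factors was -0.02, with 27 above and 35 below 0, and the median over all genes was -0.0042. Without both libraries the factor median was -0.03, again with 27 above and 35 below 0. No call of a diet difference could thus be made for any of these genes, and the values below describe where libraries differed.

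The 4 factors past the unadjusted threshold are Eif5a2, Eif4g3, Pabpc2 and Eif4e2, and in each the highest values came from HFD 4 and HFD 8. Eif5a2 (chromosome 3, 28781276 to 28798846, GRCm38) encodes the second form of eIF5A, the factor that helps ribosomes through stalled peptide bonds, and is known for expression in testis and brain. It lay at 4.53 to 58.9 CPM in HFD with a median of 9.25, and at 1.83 to 10.1 CPM in CD with a median of 6.02. HFD 8 had 58.9, HFD 4 had 28.6 and HFD 6 had 18.4 CPM, and the other 5 HFD libraries lay within or close to the CD range. Its means were 17.5 ± 18.7 and 6.02 ± 2.70 CPM (SD, n = 8 each), so that HFD was 1.52 ± 0.53 (SE) higher on the log2 scale (edgeR adjusted p = 0.434). Leaving out HFD 4 and HFD 8 gave 0.54. The ubiquitous form Eif5a averaged 241 ± 21.7 CPM in HFD libraries and 232 ± 52.1 in CD libraries.

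Eif4g3 (chromosome 4, 137993022 to 138208508) encodes an eIF4G scaffold protein that spermatocytes need to get through meiosis. It ranged from 161 to 719 CPM in HFD with a median of 209, and from 162 to 222 CPM in CD with a median of 184. HFD 4 at 719 and HFD 8 at 507 CPM were above all others, and no other library passed 255. The log2 fold change of 0.69 ± 0.29 (SE, edgeR adjusted p = 0.434) was 0.12 without these libraries. Its paralogs did not share the pattern: Eif4g1 stood at 176 and 180 CPM in HFD 4 and HFD 8, inside the 170 to 260 of the others, and Eif4g2 at 1084 and 1119 beside 1104 to 1627. The Eif4g3 locus holds other annotated genes (Mir6399 and 1700095J12Rik), whose reads the counting may not separate from it.

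Eif4e2 (chromosome 1, 87213914 to 87240488) encodes 4EHP, a cap-binding protein that represses rather than starts translation. It had 417 CPM in HFD 4 and 232 in HFD 8, and 66.3 to 110 CPM in the other 14 libraries. The diet means were 145 ± 122 and 82.6 ± 14.6 CPM (SD, n = 8 each), a log2 fold change of 0.81 ± 0.35 (SE, edgeR adjusted p = 0.434) that became 0.05 without both libraries. The canonical cap-binding gene Eif4e behaved differently in these 2 libraries, with 6.55 CPM in HFD 4 and 171 in HFD 8, on either side of the 52.7 to 107.5 of the others.

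Among the poly(A)-binding proteins, which coat mRNA tails and bind eIF4G, Pabpc2 and Pabpc6 spread most between libraries. Both are annotated with exons that fill the whole gene span: Pabpc2 at chromosome 18, 39773497 to 39776082, with 2586 exonic bases, and Pabpc6 at chromosome 17, 9666495 to 9669717, with 3223. Pabpc2, a retroposed form known from testis, lay at 98.3 to 2134 CPM in HFD with a median of 239, and at 93.8 to 396 CPM in CD with a median of 187. HFD 4 had 2134 and HFD 8 had 1326 CPM, and the remaining HFD libraries overlapped CD throughout. The log2 fold change was 1.41 ± 0.595 (SE, edgeR adjusted p = 0.434) with all libraries, 0.73 without HFD 4, and -0.17 without both. Pabpc6 had 1291 CPM in HFD 8 and 489 in HFD 4, and 40.6 to 325 CPM elsewhere, with a fold change of 1.02 ± 0.60 (SE, edgeR adjusted p = 0.549) that was 0.18 without HFD 8 and -0.31 without both. The 2 libraries thus rank in opposite order for Pabpc2 and Pabpc6. Pabpc1 (chromosome 15, 36595661 to 36609668) had 2819 CPM in HFD 4 and 1755 in HFD 8, and 730 to 1193 in the others. Pabpc2 and Pabpc6 share 0% of their 50-base words with other transcripts, and Pabpc1 shares 19.1%. Pabpc4, which shares 69.3%, went the other way in HFD 4, at 1.79 CPM beside 5.19 to 23.2 in the 14 and 9.76 in HFD 8.

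**Figure D2:**
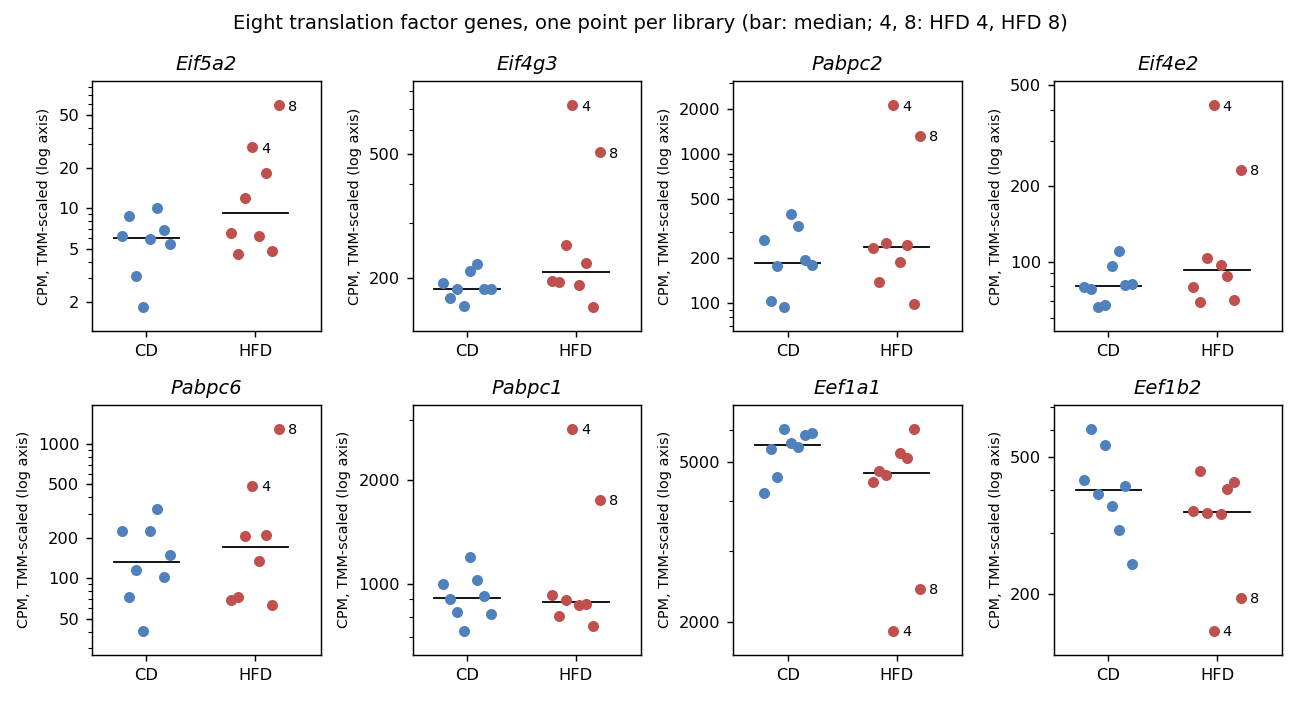
TMM-scaled CPM (vertical log axes) of 8 factor genes, 1 point per library and 8 libraries per diet, with a bar at each median and HFD 4 and HFD 8 numbered. Both numbered libraries lie above the others for Eif5a2, Eif4g3, Pabpc2, Eif4e2, Pabpc6 and Pabpc1, and below them for Eef1a1 and Eef1b2, while the remaining HFD points overlap CD.

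The eEF1 subunits were split. Eef1a1 (chromosome 9, 78478449 to 78489151) had 1903 CPM in HFD 4 and 2424 in HFD 8, below the 4190 to 6053 of the other 14 libraries. Its means were 4333 ± 1429 CPM for HFD and 5376 ± 659 for CD (SD, n = 8 each), a log2 fold change of -0.31 ± 0.25 (SE, edgeR adjusted p = 0.676) that was -0.08 without both libraries. It shares 53.6% of its 50-base words with other transcripts, so its count depends on how reads that fit several genes were treated. Eef1b2 (chromosome 1, 63176825 to 63180486), a nucleotide exchange subunit whose locus overlaps Ndufs1 on the other strand, had 156 and 195 CPM in HFD 4 and HFD 8 against 244 to 604. Eef1d, the other exchange subunit, had 561 and 392 CPM there, above the 96.6 to 177 of the 14, with a diet log2 fold change of 0.67 (edgeR adjusted p = 0.449) that was -0.02 without both. Eef1g, the structural subunit of the same complex, was at 276 and 348 CPM, inside the range of 257 to 540. Eef1g shares 64.3% of its 50-base words with other transcripts. Eef1d shares 9.69% and overlaps Naprt on the same strand, and Eef1b2 shares 5.83%. Eef2, outside the pattern and named after its values were seen, averaged 1353 ± 273 CPM in HFD libraries and 1558 ± 330 in CD libraries (edgeR adjusted p = 0.738). In these counts, subunits of 1 complex were therefore found above, within and below the range of the other libraries in the same HFD 4 and HFD 8 samples. The part of reads that fit several genes in this split was not tested.

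Across all 62 tested factors, both HFD 4 and HFD 8 lay above the highest of the other 14 libraries for 14 genes, beside 21.8% of all genes tested, and below the lowest for 10, beside 22.6%. The 14 are Eef1d, Eif1, Eif1b, Eif2b4, Eif3b, Eif3c, Eif3e, Eif4e2, Eif4g3, Eif5, Eif5a2, Pabpc1, Pabpc2 and Pabpc6. The 10 are Eef1a1, Eef1b2, Eif2b2, Eif2d, Eif2s3x, Eif3f, Eif3i, Eif3l, Eif4b and Eif4ebp2. These counts are near those of genes in general. Against the median of the other libraries, Pabpc2 led the 14 genes in HFD 4 (11.2 times, and 6.96 times in HFD 8). Pabpc6 (10.4 times) and Eif5a2 (9.53 times) led in HFD 8. The 14 were picked as high in both libraries, and such folds were not set against those of all genes. They are therefore not read as a trait of the factors. Beside the values of these factors stand the late spermatid, meiotic and epididymal epithelium sums given above, which moved in the same 2 libraries. With the late spermatid sum as a covariate in the diet fit of all 16 libraries, 0 factors passed the unadjusted threshold, beside 367 of 13149 genes. The part of these sums in the results was not tested beyond that fit and the slope fits below.

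The start region of members on each side of that split is shown for a view of their promoters: 250 bases before the RefSeq start (GRCm38.p6), for 3 genes that were high in both libraries (Eif5a2, Eif4g3, Eif4e2) and 2 that were low (Eef1a1, Eef1b2). Capitals mark the half-site TGACG, or CGTCA on the other strand, of the cAMP response element (CRE), which the spermatid activator CREM binds. Coordinates stand with each name.
Eif5a2, chr3:28781027-28781276, plus strand: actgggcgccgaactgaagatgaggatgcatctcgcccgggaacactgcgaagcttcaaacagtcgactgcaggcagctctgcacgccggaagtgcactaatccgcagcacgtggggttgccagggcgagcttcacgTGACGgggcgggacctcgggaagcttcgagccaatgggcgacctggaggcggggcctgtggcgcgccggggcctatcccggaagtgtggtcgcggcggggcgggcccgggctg
Eif4g3, chr4:137993205-137993454, plus strand: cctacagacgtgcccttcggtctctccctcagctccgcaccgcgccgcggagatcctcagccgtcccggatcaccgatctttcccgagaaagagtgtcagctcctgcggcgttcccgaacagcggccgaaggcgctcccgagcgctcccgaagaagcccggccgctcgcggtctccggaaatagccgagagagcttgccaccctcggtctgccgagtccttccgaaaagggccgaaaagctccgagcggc
Eif4e2, chr1:87213661-87213910, plus strand: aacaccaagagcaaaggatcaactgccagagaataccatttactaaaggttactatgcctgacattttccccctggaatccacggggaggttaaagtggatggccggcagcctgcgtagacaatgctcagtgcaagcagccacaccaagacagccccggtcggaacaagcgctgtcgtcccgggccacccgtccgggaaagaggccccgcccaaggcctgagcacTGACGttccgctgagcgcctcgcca
Eef1a1, chr9:78481725-78481974, minus strand: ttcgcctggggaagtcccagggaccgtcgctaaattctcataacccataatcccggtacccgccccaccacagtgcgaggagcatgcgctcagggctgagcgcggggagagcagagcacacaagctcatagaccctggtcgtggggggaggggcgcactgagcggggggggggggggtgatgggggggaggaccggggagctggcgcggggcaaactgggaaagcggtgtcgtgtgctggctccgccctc
Eef1b2, chr1:63176581-63176830, plus strand: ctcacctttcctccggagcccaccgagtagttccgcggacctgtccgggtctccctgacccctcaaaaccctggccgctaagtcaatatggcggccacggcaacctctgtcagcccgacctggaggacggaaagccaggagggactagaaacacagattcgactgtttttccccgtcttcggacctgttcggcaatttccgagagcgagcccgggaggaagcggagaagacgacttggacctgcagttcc
Eif5a2 and Eif4e2 hold 1 such half-site each, and the letters do not occur in the other windows shown. Pabpc1, Pabpc2 and Pabpc6, also high in both libraries, are not among these windows. Among the 49 factor genes with a RefSeq window, 19 (38.8%) hold the half-site, beside 17.9% of 27025 windows of all genes. That share is not divided into high and low members. Whether the half-site goes with the split was not tested. The full palindrome TGACGTCA, which contains the half-site, is in 0 of the 49 and in 1.62% of all windows. The TATA letters TATAAA, or TTTATA on the other strand, are in 5 of the 49 (10.2%) and in 13% of all. A match of letters is a description of the window and not a binding site.

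Of the 9 genes grouped by symbol under start codon selection, Eif1ad among them, 4 had diet log2 fold changes above 0 and 5 below. They ran from -0.48 (Eif2d) to 0.60 (Eif1b), with a median of -0.01. Leaving out HFD 4 and HFD 8 left 2 above and 7 below, with a median of -0.08. Eif1, the gatekeeper of start codon choice, had 447 CPM in HFD 8, 230 in HFD 4 and 156 to 228 in the others. Its copy Eif1b had 114 and 48.8 CPM against 12.5 to 35.4. Eif1ax, the X-linked gene of eIF1A (X chromosome, 159372178 to 159389928), averaged 200 ± 64.9 CPM in HFD libraries and 221 ± 113 in CD libraries (SD, n = 8 each, edgeR adjusted p = 0.864), with a log2 fold change of -0.15, and -0.05 without both libraries. Eif5, which triggers GTP hydrolysis on eIF2, had 1039 CPM in HFD 8 and 714 in HFD 4 against 386 to 685, so HFD 4 was only just outside that range.

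For eIF2 itself, which carries the initiator tRNA, 3 of 4 subunit genes were above 0 with a median log2 fold change of 0.10, and 3 of 4 with a median of 0.01 without HFD 4 and HFD 8. The alpha subunit gene Eif2s1 averaged 82.9 ± 45.3 CPM in HFD libraries and 78.8 ± 18.5 in CD libraries. The Y-linked gamma subunit gene Eif2s3y, needed by spermatogonia, had 204 CPM in HFD 4, 75.0 in HFD 8 and 39.5 to 111 elsewhere. Its X-linked partner Eif2s3x had 10.7 and 15.7 CPM in HFD 4 and HFD 8, below the 25.5 to 48.0 of the other 14. The eIF2B subunits, which recharge eIF2, had a median of -0.01 (2 above, 3 below), and the 4 eIF2 kinases, which halt initiation under stress, a median of 0.01 (2 above, 2 below). In the 14 libraries without HFD 4 and HFD 8 these became 0.19 (4 above, 1 below) for eIF2B and 0.21 (3 above, 1 below) for the kinases. In the kinases, Eif2ak4 (GCN2) averaged 31.4 ± 11.1 CPM in HFD libraries and 24.1 ± 8.46 in CD libraries, and Eif2ak1 (HRI, the haem-regulated kinase) 49.0 ± 12.2 and 55.3 ± 8.36 (SD, n = 8 each).

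The 12 tested eIF3 subunits, which form the largest initiation complex, had 6 diet log2 fold changes above and 6 below 0, from -0.23 to 0.25 with a median of 0.03. Leaving out HFD 4 and HFD 8, 5 were above and 7 below, with a median of -0.03, and Eif3e, Eif3i and Eif3b were at 0.0093, 0.10 and -0.04. Eif3e averaged 336 ± 117 CPM in HFD libraries and 283 ± 76.3 in CD libraries (SD, n = 8 each, edgeR adjusted p = 0.731). Eif3i had 209 ± 65.8 and 226 ± 17.5 CPM (edgeR adjusted p = 0.850), where the wide HFD spread came from 112 CPM in HFD 4 and 108 in HFD 8 beside 201 to 298 in the others. Eif3b had 157 and 134 CPM in the same libraries, above the 61.4 to 107 of the others. As with eEF1, subunits of eIF3 lay on both sides of the other libraries.

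The cap-binding complex genes had a median log2 fold change of -0.13, with 4 of 11 above 0, and of 0.0024, with 6 of 11 above 0, without HFD 4 and HFD 8. Apart from Eif4g3 and Eif4e2 their fold changes stayed between -0.31 and 0.05. The genes that restrain the complex, Eif4ebp1, Eif4ebp2, Eif4ebp3 and the eIF4E transporter Eif4enif1, were all below 0, with a median of -0.46, and -0.25 without HFD 4 and HFD 8. With RLE size factors in place of TMM, Eif4ebp3 was at 0.0054. Eif4ebp2 averaged 74.1 ± 28.3 CPM in HFD libraries and 107 ± 34.7 in CD libraries (SD, n = 8 each), a log2 fold change of -0.52 ± 0.26 (SE) that did not pass (edgeR adjusted p = 0.459) and was -0.32 without HFD 4 and HFD 8. Its values overlapped, with 40.5 to 117 CPM in HFD and 62.7 to 163 in CD. Eif6, which keeps the large subunit free, and Eef2k, the kinase that switches off eEF2, were at -0.08 and -0.42 without passing (edgeR adjusted p = 0.899 and 0.697), and at 0.05 and -0.47 without those libraries.

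**Figure D3:**
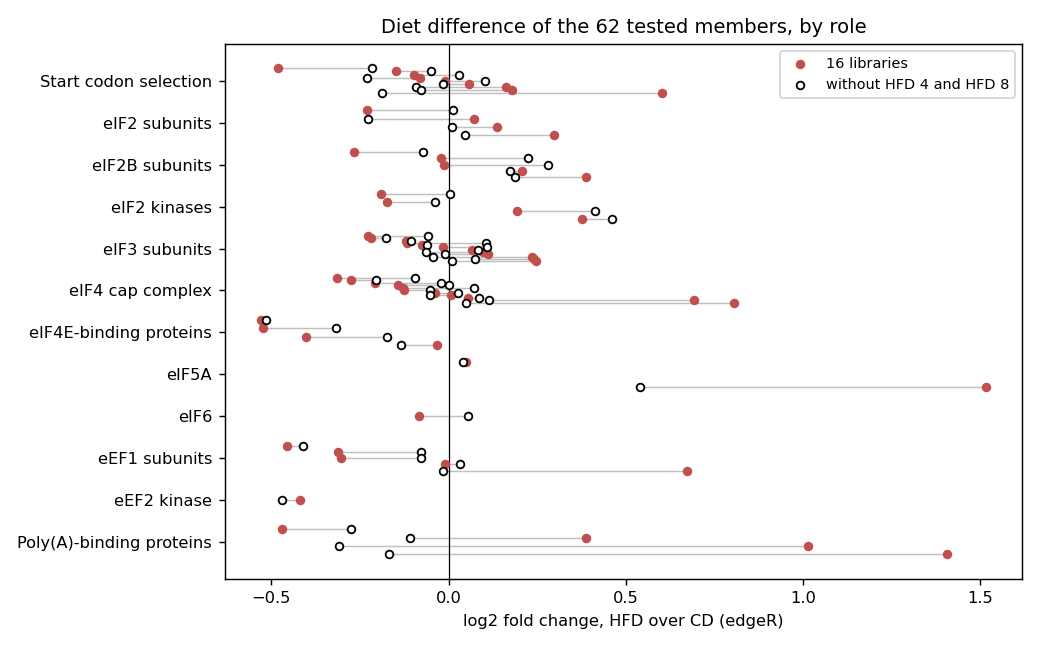
log2 fold change of HFD over CD (edgeR, horizontal axis) of the 62 tested factor genes, grouped by role. Filled points use all 16 libraries and open points leave out HFD 4 and HFD 8. The points furthest to the right, Eif5a2 at 1.52 and Pabpc2 at 1.41, move to 0.54 and -0.17.

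Within-library ratios of related factor genes need no scaling between libraries, and 9 pairs were compared by diet with a two-sided exact permutation test over 12870 assignments. None passed after Benjamini-Hochberg adjustment over the 9, with adjusted values from 0.450 to 0.806. The ratios are log2 ratios of counts, with 0.5 added to each, and are not corrected for length. Pabpc2 over Pabpc1 was -1.77 ± 0.92 in HFD and -2.23 ± 0.56 in CD (SD, n = 8 each, exact permutation p = 0.250, adjusted 0.450). It was -0.40 in both HFD 4 and HFD 8, above the -3.13 to -1.59 of the other 14. Eif4g3 over Eif4g1 was 2.03 in HFD 4 and 1.5 in HFD 8, and -0.66 to 0.58 in the others (exact permutation p = 0.160, adjusted 0.450). Eif5a2 over Eif5a had the largest difference of the 9, 1.01, with an exact permutation p of 0.103 (adjusted 0.450). In contrast, Eif4g2 over Eif4g1 was 2.67 ± 0.23 in HFD and 2.76 ± 0.32 in CD (SD, n = 8 each), with single libraries from 2.30 (CD 8) to 3.21 (CD 2), and HFD 4 and HFD 8 inside that range at 2.62 and 2.64. Without HFD 4 and HFD 8 the adjusted value was 0.968 for all 9 pairs.

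**Figure D4:**
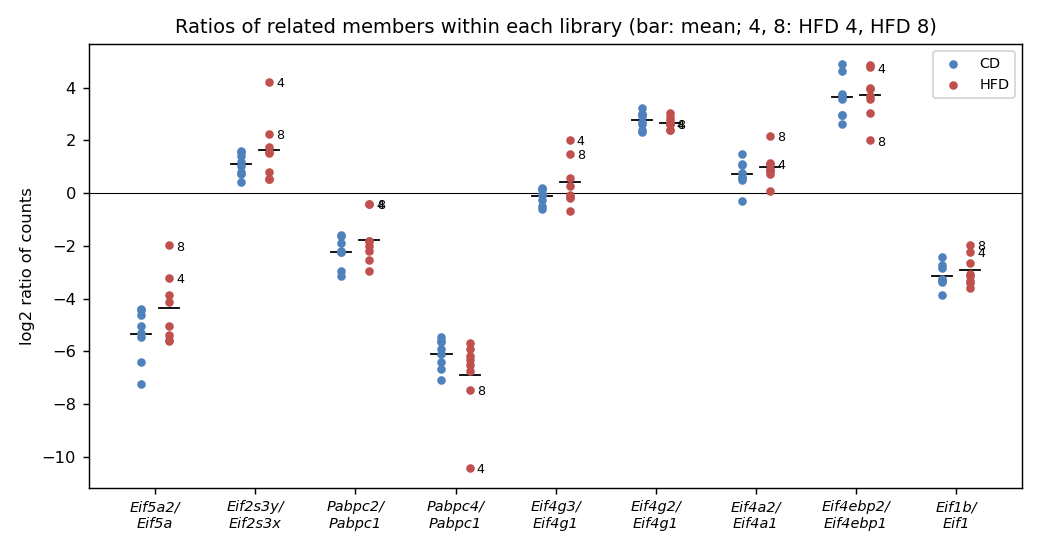
log2 ratio of counts within a library for pairs of related factor genes, 1 point per library and 8 per diet, with a bar at each diet's mean and HFD 4 and HFD 8 numbered. Pabpc2 over Pabpc1 is -0.40 in both numbered libraries and at most -1.59 in the others.

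The 14 libraries without HFD 4 and HFD 8 still ranged from 2301 (CD 2) to 13142 CPM (CD 5) in their late spermatid sum, and a further fit asked which factors moved with it. A slope is the log2 change of a gene for each doubling of that sum, with diet as a term. By edgeR, 3 of 62 factors had a positive slope at an adjusted p of 0.05, beside 8.5% of all genes tested, and 2 a negative one, beside 3.47%. The median slope of the factors was -0.05, with 21 above and 41 below 0, and that of all genes was -0.01. The positive ones were Pabpc2 with 0.61 ± 0.13 (SE, edgeR adjusted p = 0.00382), Pabpc6 with 0.83 ± 0.205 (SE, edgeR adjusted p = 0.0179) and Eif3b (chromosome 5, 140419328 to 140443360) with 0.25 ± 0.082 (SE, edgeR adjusted p = 0.0444). Negative slopes were those of Eef1b2, at -0.31 ± 0.075 (SE, edgeR adjusted p = 0.00792), and Eif1ax, at -0.41 ± 0.108 (SE, edgeR adjusted p = 0.0155). Thus Pabpc2 and Pabpc6 rose with the late spermatid sum inside the 14 libraries, while Pabpc1 had a slope of 0.13 (edgeR adjusted p = 0.253) and Eef1a1 one of -0.03 (edgeR adjusted p = 0.864).

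The calls depended on the libraries at the ends of the range. With each library left out in turn, Pabpc2 passed in 14 of 14 fits, Pabpc6 and Eef1b2 in 13 and Eif1ax in 12, while Eif3b passed in only 2. Without CD 2, the edgeR adjusted p was 0.0778 for Pabpc6 and for Eef1b2, and 0.294 for Eif1ax, whose slope moved to -0.21. Without CD 5 it was 0.0809 for Eif1ax and 0.130 for Eif3b. Leaving out both CD 2 and CD 5 left 0 of 62 factors past the adjusted threshold, beside 437 of 13201 genes tested. At an unadjusted p of 0.05 there were 8 factors, beside 1987 of the same 13201 genes. The edgeR adjusted p was then 0.153 for Pabpc2 and 0.126 for Pabpc6. With all 16 libraries, 11 factors had a positive slope and 10 a negative one by edgeR, beside 23.4% and 19.8% of all genes tested. The CPM of all genes in a library share 1 total, and the epididymal sum runs from 39007 to 97682 CPM in the same 14 libraries; its part in the slopes was not tested beyond the fit with that sum in place of the late spermatid one, where the value for Pabpc2 was 0.140 by edgeR, adjusted.

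**Figure D5:**
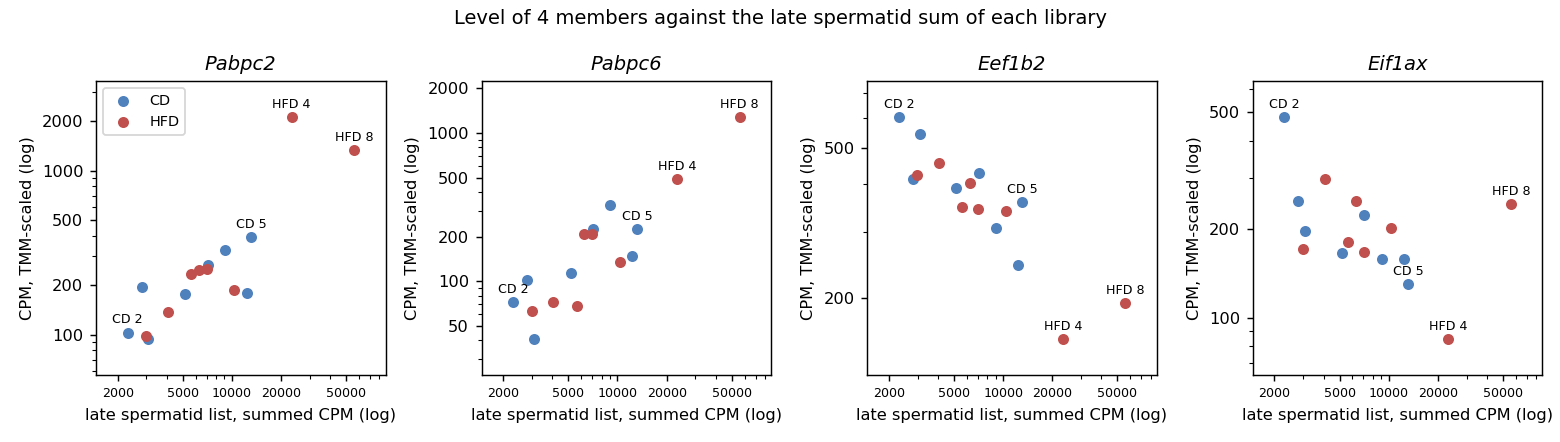
TMM-scaled CPM of Pabpc2, Pabpc6, Eef1b2 and Eif1ax (vertical log axes) against the late spermatid sum of each library in CPM (horizontal log axes), 1 point per library. Pabpc2 and Pabpc6 lie higher and Eef1b2 lower where the sum is higher, and for Eif1ax the CD 2 library at 484 CPM and a sum of 2301 stands above the rest.

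Genes that work with these factors were read from 8 lists, and 0 of their tested genes passed by diet (edgeR, adjusted p of 0.05). Proteins of start-site scanning (10 tested) had a median log2 fold change of 0.03, cap and poly(A) partners (15 tested) 0.01, and the integrated stress response (11 tested) 0.10. Without HFD 4 and HFD 8 these were -0.01, -0.05 and 0.05. The mTOR branch to translation (12 tested) had a median of -0.24 with 9 below 0, factor modification (10 tested) -0.10, and mitochondrial translation factors (11 tested, 9 below 0) -0.14. Without those libraries they were -0.08, -0.07 and 0.0017, the last with 6 above and 6 below 0. For termination and ribosome rescue (11 tested) the median was 0.18, and 0.07 without the same libraries, and 1 gene passed the unadjusted threshold, beside 10.2% of all genes higher in HFD: Eefsec, the elongation factor for selenocysteine, with 11.8 ± 5.64 CPM for HFD and 7.08 ± 2.42 for CD (SD, n = 8 each, edgeR adjusted p = 0.442). Its log2 fold change was 0.72, and 0.36 without HFD 4 and HFD 8.

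The list of germ-line translation control genes stood highest, with a median of 0.74 over 13 tested, 9 above 0 and 4 past the unadjusted threshold, beside 10.2% of all genes higher in HFD. In the other 14 libraries its median was -0.06, with 4 above and 10 below 0. Ybx2, a germ-cell protein that packages stored mRNA, averaged 135 ± 163 CPM in HFD libraries and 50.9 ± 26.6 in CD libraries (SD, n = 8 each, edgeR adjusted p = 0.434), a log2 fold change of 1.41 that was -0.09 without both libraries. With the late spermatid sum in the 14 libraries, Ybx2 rose by a slope of 0.74 (edgeR adjusted p = 0.000277) and its relative Ybx3 by 0.62 (edgeR adjusted p = 0.000579). On the negative side, Impact, an inhibitor of GCN2 activation, had a slope of -0.38 (edgeR adjusted p = 0.00644) and Ddx3y, the Y-linked scanning helicase, one of -0.36 (edgeR adjusted p = 0.0471).

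The factors varied less between libraries than genes in general. The median SD of log2 CPM over the tested factors was 0.35 in CD, beside 0.50 over all genes tested, and 0.55 in HFD, beside 0.84. In the 6 HFD libraries other than HFD 4 and HFD 8 it was 0.27, beside 0.44. Low counts widen such SDs, and the factors are among the better counted genes, so the comparison is a description and was not tested.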

How the data were processed

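RNA-seq of mouse spermatozoa was analysed in 16 libraries (8 HFD, 8 CD); groups and numbers come from the labels. The series describes 8 mice a diet, so libraries were treated as separate animals. The authors deposited 1 table of unnormalised read counts by gene symbol. Per the submitters' processing notes, the genome build was mm10 and the tools include STAR, DESeq2 1.0.19 and HTSeq 1.0.0, whose roles are not stated. Annotation and strand setting: not given in the sources used here. The 5 summary rows were kept out of totals.

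The members, the lists and HFD 4 and HFD 8 as libraries to leave out were chosen with earlier results of these data known. Counts were fitted with edgeR 4.0.16 (R 4.3.3; quasi-likelihood, robust, TMM, filterByExpr), over the whole table, two-sided, with Benjamini-Hochberg adjustment and a threshold of 0.05. Named genes were the members with the smallest diet p and those with the highest levels per kilobase. Added to them were the largest positive and negative late spermatid slopes among those past the adjusted threshold. Other members illustrate their role and were picked after their values were seen. Exonic lengths, overlaps and shared 50-base words came from GENCODE M21 on GRCm38: 35 members overlap another annotated gene and 21 share over 10% of their words. Promoter windows are RefSeq's, with 49 members matched by symbol. Alternatives were DESeq2 1.42.0, limma-voom 3.58.1, other scalings and filters, a replicate block, and libraries left out. Fits were tested on simulated data.

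Precision is set by counts: 3 counts correspond to 0.385 to 1.59 CPM, for counting error only.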

Additional observations from a re-analysis of the deposited data

Results flagged for a closer look

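Among 46 groups of 8 values examined (named genes and ratios within a diet), 8 held 1 library whose gap to its nearest neighbour was over 0.526 of the group's range. For independent, normally distributed values this limit flags about 1 in 20 groups. Here the groups share genes and libraries, and CPM were not log-transformed. Some genes were also named for diet or slope values that depended on the libraries then flagged. The count of 8 is therefore not read against that rate. No difference of effects between groups was flagged, and no data outside the main measurement were used.

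4 of the 8 came from HFD 4 and HFD 8 as single high values or ratios in genes described above. Eif4e2 had 417 CPM in HFD 4, with at most 232 in the other HFD libraries. Eif5a2 had 58.9 CPM in HFD 8, with at most 28.6 in the rest. Pabpc6 had 1291 CPM in HFD 8, with at most 489 in the rest. The log2 ratio of Eif2s3y to Eif2s3x, the Y- and X-linked genes of the eIF2 gamma subunit, was 4.21 in HFD 4 and at most 2.24 in the other HFD libraries.

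HFD 4 also held the lowest log2 ratio of Pabpc4 to Pabpc1, -10.4, where the other HFD libraries were at -7.46 or above. The remaining 3 were high values in CD 2, the library with the deepest counts and the lowest late spermatid sum. Eef1g had 540 CPM there and at most 376 in the other CD libraries. Eif1ax had 484 CPM, with at most 249.9 in the rest. Eif3e had 445 CPM, with at most 321 in the rest.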

How the results depend on the processing

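The number of factors called by diet was 0 under all 10 alternatives and with each library left out in turn. Replicate numbers did not pair the libraries: correlations of same-numbered deviations ran from -0.40 to 0.61, and only numbers 2 and 3 correlated best with their own number. With the replicate block, edgeR called 0 factors, and none of the 4 higher in HFD at an unadjusted p under 0.05 passed it; 1 other, Eif4ebp2, lower in HFD, did, beside 314 of 13149 genes in either direction. The summed level moved from a log2 difference of -0.05 to 0.064 without Eef1a1, the most abundant member. The slope calls were 5 factors in the main fit, beside 1610 of 13448 genes. All 16 libraries gave 21, beside 5674 of 13149 genes. Without the 2 farthest libraries (CD 2 and CD 5) there were 0, beside 437 of 13201 genes. The epididymal sum in place of the late spermatid one, its sign turned, gave 11, beside 592 positive and 612 negative of 13448 genes. All 11 were negative, so Pabpc2, Pabpc6 and Eif3b were no longer called. Leaving each library out gave 2 (without CD 2, beside 805 of 13350 genes) to 9 (without HFD 7, beside 1803 of 13654 genes).

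The genes whose sign turned had edgeR adjusted p from 0.434 to 0.987 in the reported comparison. Without HFD 4 and HFD 8 together, the diet log2 fold change was -0.17 for Pabpc2, -0.31 for Pabpc6, -0.11 for Pabpc1, -0.043 for Eif3b, 0.10 for Eif3i and 0.031 for Eef1g, and the difference in the Eif1b to Eif1 ratio was -0.057. With limma-voom and quality weights it was -0.18 for Pabpc6, -0.038 for Pabpc1, -0.027 for Eif3b, 0.032 for Eif3i, 0.043 for Eif1ax and 0.068 for Eef1g. With the late spermatid sum as a covariate it was -0.18 for Pabpc6, 0.043 for Eif1ax and 0.064 for Eef1g. For Eef1g it was also 0.019 with RLE size factors, 0.018 with DESeq2 and 0.023 with the replicate block. With 1 library left out, Eef1g ranged from -0.053 to 0.12, Eif1ax from -0.26 to 0.12 (0.12 without CD 2) and the difference in the Eif4ebp2 to Eif4ebp1 ratio from -0.054 to 0.35. Role medians turned sign as well, beside those given above without HFD 4 and HFD 8: the start codon factors were at 0.02 with RLE size factors, DESeq2 and limma-voom and 0.07 with the block, eIF2B at 0.0047 with RLE size factors, 0.0073 with DESeq2, 0.16 with limma-voom and 0.22 with the covariate, the kinases at -0.0069 without a filter, eIF3 at -0.02 and the cap complex at 0.05 with limma-voom, eIF6 at 0.02 with the covariate, and the poly(A)-binding proteins (0.70) at -0.11 with limma-voom, -0.06 with the covariate and -0.22 without HFD 4 and HFD 8. The cause of these moves was not tested. Depth limits the low genes: at 0.385 to 1.59 CPM per 3 counts, Eif4e1b, Pabpc5 and the genes at 0 allow no comparison.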

Other observations

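HFD 4 and HFD 8 differed from each other for some factors as much as from the other libraries. Eif2b1, a regulatory subunit gene of eIF2B, had 0.595 CPM in HFD 4, 18.5 in HFD 8 and 9.25 to 46.2 in the other 14. Eif4h, a helper of the eIF4A helicase, had 30.9 CPM in HFD 4 and 111 in HFD 8, beside 84.0 to 135. Eif4enif1, which carries eIF4E into the nucleus, had 10.1 CPM in HFD 4 and 39.4 in HFD 8, beside 38.3 to 81.5. Eif4e3 and Eef1e1 had 0 counts in HFD 4, the shallowest library, where 3 counts correspond to 1.59 CPM, and 9.76 and 6.97 CPM in HFD 8. In the other direction, Eif2ak4 had 45.2 CPM in HFD 4 and 8.37 in HFD 8, beside 12.3 to 39.0. These genes were picked after their values were seen, and a difference between 2 single libraries has no replicate check.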
